A study of Mus musculus with 8 samples.

Results

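The genes described here are 36 genes of DNA replication and mitosis, chosen by symbol, of which 33 had a named probe among the 16593 named genes of the array. They comprised 3 G1 cyclins (Ccnd1, Ccne1 and Ccne2), 12 S phase genes and 18 of 21 mitotic genes. Mki67, Ccnb1 and Aurkb had no probe in the annotation used and were not analysed here. In sorted mouse mammary cells the mean of the set lay between 6.49 and 6.63 on the log2 scale across the 8 arrays. It was lowest in homozygous FDG-low cells, at 6.491 and 6.487, but this did not hold for the set as a whole. The median deviation of members from their own means was -0.012 and 0.006 there, and lowest on 1 homozygous FDG-high array (-0.078). The S phase mean was lowest on 1 heterozygous FDG-low array (6.914) and the mitotic mean on 1 heterozygous FDG-high array (6.146). Between homozygous and heterozygous FDG-low cells 3 of 33 members (9.09%) passed the threshold, near the 8.41% of all genes. Ccnd1 and Mcm6 were lower and Rrm2 was higher in homozygous cells, and the calls of Mcm6 and Rrm2 were lost under several alternative settings. In limma no member passed the threshold in the comparisons of gates or in FDG-high cells.

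All mice carried a lacZ insertion in Axl, a receptor tyrosine kinase gene of the TAM family, on a B6.129P2 background (the Axl tm1Dgen strain). The insertion reports the activity of the gene and disrupts it, so heterozygous glands keep 1 intact allele, homozygous glands none, and glands without the insertion were not analysed here. Glands of nulliparous females 16 weeks old were dissociated and pooled over several mice of a genotype, and cells were sorted with FDG, which fluoresces when the lacZ product cleaves it. Live cells negative for CD45, CD31 and CD11b gave the FDG-high group (brightest 5%) and the FDG-low group (dimmest 65%). The 4 groups of 2 arrays were homozygous (AxlLacZ/LacZ) FDG-high, homozygous FDG-low, heterozygous (Axl+/LacZ) FDG-high and heterozygous FDG-low. Whether the arrays of a group came from different pools is not in the labels, and p-values then speak only for the spread among these samples, which may be technical.

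Values are log2 intensities after background correction and quantile normalization, differences are homozygous minus heterozygous or FDG-high minus FDG-low with their standard error from limma, and adjusted p-values cover all 16593 genes with a threshold of 0.05. Median intensity lay between 115.7 and 126.7 units, and 48.1% to 55.5% of probes were above background, with the lowest shares, 48.4% and 48.1%, in homozygous FDG-low cells. Axl itself measured 6.08 and 6.40 in homozygous FDG-high cells and 6.24 and 6.40 in homozygous FDG-low cells, against 8.89 and 9.13 in heterozygous FDG-high cells and 8.45 and 7.98 in heterozygous FDG-low cells. At least 8 of 9 epithelial markers and all 10 fibroblast markers were above background on every array, and 0 of 9 leukocyte markers were above it on any. In such bulk samples, fewer cells of a type and less RNA per cell cannot be told apart.

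A cell enters the cycle when D-type cyclins activate Cdk4 and Cdk6, which relieve RB's hold on E2F factors. E2F targets supply the replication machinery (the Mcm helicase, Pcna, and the enzymes that make deoxynucleotides). Genes of mitosis are switched on later through Foxm1, B-Myb and the MuvB complex. MuvB binds CHR elements, often near CCAAT boxes bound by NF-Y. The adult virgin mammary gland is mostly quiescent, with divisions that follow the oestrous cycle. Ccnd1 is known in the mouse for its part in alveolar growth of the gland during pregnancy.

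Promoters of both classes were read for the motifs of these factors. RefSeq (GRCm38.p6) windows from 250 bases before to 50 bases after the start were at hand for 29 of the 36 genes, and Ccnd1, Ccne2, Mcm4, Foxm1, Ccna2, Aurkb and Kif20a were not matched. Both strands were searched for an E2F-like motif (TTTCGCGC or TTTGGCGC), a CHR-like motif (TTTGAA) and a CCAAT box (CCAAT). Promoters of 4 genes are shown because Mcm6 and Rrm2 are the S phase genes that changed and Cdk1 and Plk1 are the kinases that drive mitosis, with the motifs in capitals on the strand of the gene, so that a motif on the other strand appears as its reverse complement.
Mcm6, chr1:128359656-128359955, minus strand: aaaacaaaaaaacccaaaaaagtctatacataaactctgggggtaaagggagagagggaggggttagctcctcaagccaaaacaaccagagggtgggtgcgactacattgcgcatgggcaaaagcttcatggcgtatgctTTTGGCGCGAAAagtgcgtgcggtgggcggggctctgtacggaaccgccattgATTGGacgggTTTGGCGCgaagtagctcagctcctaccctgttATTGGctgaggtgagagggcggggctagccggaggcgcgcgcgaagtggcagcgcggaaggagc
Rrm2, chr12:24708004-24708303, plus strand: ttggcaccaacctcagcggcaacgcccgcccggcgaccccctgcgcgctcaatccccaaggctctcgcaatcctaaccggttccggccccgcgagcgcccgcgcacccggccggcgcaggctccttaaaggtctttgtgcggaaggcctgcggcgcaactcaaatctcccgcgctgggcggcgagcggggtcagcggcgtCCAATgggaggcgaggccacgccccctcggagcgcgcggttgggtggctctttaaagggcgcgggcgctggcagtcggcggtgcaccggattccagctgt
Cdk1, chr10:69352863-69353162, minus strand: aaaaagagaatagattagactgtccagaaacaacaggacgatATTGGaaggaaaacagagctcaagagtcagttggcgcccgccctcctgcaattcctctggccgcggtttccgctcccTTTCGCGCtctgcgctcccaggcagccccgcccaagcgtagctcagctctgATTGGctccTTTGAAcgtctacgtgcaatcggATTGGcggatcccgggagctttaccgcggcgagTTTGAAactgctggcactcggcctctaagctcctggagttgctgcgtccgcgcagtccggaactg
Plk1, chr7:122159185-122159484, plus strand: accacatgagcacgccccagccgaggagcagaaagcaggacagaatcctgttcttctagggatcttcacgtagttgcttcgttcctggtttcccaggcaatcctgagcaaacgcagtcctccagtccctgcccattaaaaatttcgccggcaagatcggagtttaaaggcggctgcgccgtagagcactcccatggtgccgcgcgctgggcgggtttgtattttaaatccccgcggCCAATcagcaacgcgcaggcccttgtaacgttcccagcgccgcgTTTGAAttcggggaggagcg
Mcm6 held 3 E2F-like matches, 2 of which overlap on opposite strands, and 2 CCAAT boxes. Rrm2 held 1 CCAAT box and no other match in this window. Cdk1 held 1 E2F-like match, 2 CHR-like matches and 3 CCAAT boxes, and Plk1 held 1 CHR-like match and 1 CCAAT box.

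The E2F-like motif stood in 4 of 11 S phase promoters (36.4%) and in 1 of 17 mitotic promoters (5.88%), against 0.833% of all 27025 promoters. The CHR-like motif stood in 12 of 17 mitotic promoters (70.6%) and in 1 of 11 S phase promoters (9.09%), against 18.1% of all promoters. All 12 of those mitotic promoters also held a CCAAT box, a combination found in 7.12% of all promoters. CCAAT boxes, with or without another motif, were found in 8 of 11 S phase promoters (72.7%) and 15 of 17 mitotic promoters (88.2%), against 37.9% of all promoters. These matches describe letters in a window of 300 bases, not binding.

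S phase genes were above background more often than mitotic genes. Of the 33 genes, 21 (63.6%) were above background on at least 4 of the 8 arrays, against 55.8% of all genes. They were 10 of 12 S phase genes, 9 of 18 mitotic genes, and Ccnd1 and Ccne2. Above it on all 8 arrays were 10 genes, namely 7 S phase genes, Ccnd1, Cdk1 and Kif11. A gene counted if any of its probes was above background, and the Cdk1 probe whose values are given below was above it on 7 arrays. Mcm3, Ccnb2 and Bub1b were above it on none, and 8 of 18 mitotic genes were above it on at most 1 array. Values of such dim genes lie at the floor of the array and limit what can be seen of them.

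The mitotic genes above background numbered 10 and 9 on the homozygous FDG-high arrays and 6 and 8 on the homozygous FDG-low arrays, against 8 and 9 on the heterozygous FDG-high arrays and 9 and 10 on the heterozygous FDG-low arrays. The S phase genes above background numbered 11 and 8 in homozygous FDG-high cells and 9 and 8 in homozygous FDG-low cells, against 10 and 10 in heterozygous FDG-high cells and 9 and 10 in heterozygous FDG-low cells. The S phase count was lowest, at 8, on an array of each homozygous gate, but highest, at 11, on the other homozygous FDG-high array. The mitotic count was highest, at 10, on a homozygous FDG-high array and a heterozygous FDG-low array. Counts of the genotypes thus overlapped in both classes. The lowest mitotic count, 6, was on a homozygous FDG-low array, and the share of all probes above background was lowest in that group too.

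**Figure D1:**
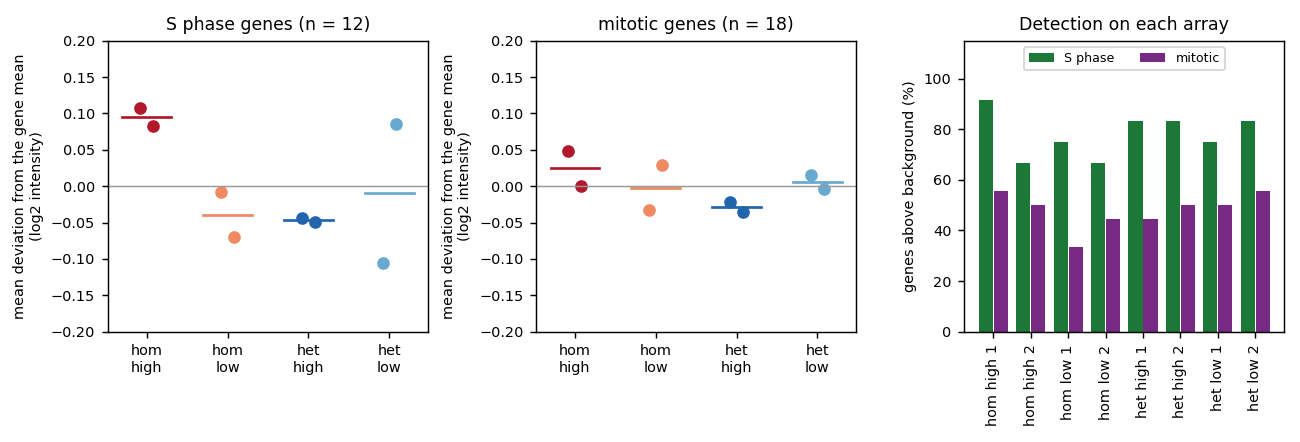
Mean deviation of the 12 S phase and 18 mitotic genes from each gene's mean over the 8 arrays (log2 intensity, left and middle; points are arrays, lines are means of 2) and the share of genes above background on each array (right, percent). The S phase means lie between -0.10 and 0.11 and the mitotic means between -0.04 and 0.05, and on every array a larger share of S phase genes is above background.

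The clearest changes lay in the comparison of genotypes among FDG-low cells. In all, 3 of 33 members (9.09%) passed the threshold, against 8.41% of all genes, so the share among members was near the background. Ccnd1 and Mcm6 fell, 2 of 33 against 4.63% of all genes, and Rrm2 rose, 1 of 33 against 3.78%. At an unadjusted p under 0.05 there were 8 members (24.2%), 4 higher and 4 lower, against 22.4% of all genes.

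Ccnd1, the G1 cyclin D1 that partners Cdk4 and Cdk6, measured 7.42 and 6.80 in homozygous FDG-low cells, against 9.09 and 9.50 in heterozygous FDG-low cells. The groups did not overlap, and the homozygous arrays were also lower than all 4 FDG-high arrays. The log2 difference was -2.19 ± 0.27, 4.55-fold lower, with an adjusted p of 0.00994 (95% confidence interval -2.85 to -1.52). Its second bright probe gave -2.05 (adjusted p over all probes 0.0119), and another, above background on 1 array, gave -0.13. Without the second homozygous FDG-low array the difference was -1.88 with an adjusted p of 0.0631.

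Mcm6, a subunit of the replicative Mcm helicase, measured 8.46 and 8.86 in homozygous FDG-low cells, against 9.45 and 9.72 in heterozygous FDG-low cells. Again the groups did not overlap. The log2 difference was -0.93 ± 0.17, 1.9-fold lower, with an adjusted p of 0.0263. The other 3 probes gave -0.57, -0.49 and -0.51 but were dimmer, and none passed over all probes (smallest adjusted p 0.0542). The call was lost when any 1 of the 4 FDG-low arrays was left out, with adjusted p-values from 0.0588 to 0.127 and the same direction. In FDG-high cells Mcm6 stood at 9.31 and 9.27 in homozygous glands, against 9.39 and 9.16 in heterozygous glands, and the groups overlapped.

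Rrm2, the small subunit of ribonucleotide reductase, measured 7.11 and 6.91 in homozygous FDG-low cells, against 6.54 and 6.50 in heterozygous FDG-low cells, and the groups did not overlap. The log2 difference was 0.50 ± 0.11, 1.41-fold higher, with an adjusted p of 0.0471. Its other probe gave 0.35 (adjusted p over all probes 0.139). The call was lost when any 1 FDG-low array or either heterozygous FDG-high array was left out, with adjusted p-values from 0.069 to 0.215.

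Rrm1, the large subunit of the same enzyme, showed the same sign at 7.93 and 8.35 in homozygous FDG-low cells, against 7.68 and 7.65 in heterozygous FDG-low cells (0.47 ± 0.19, adjusted p 0.202). Over the 4 genes of deoxynucleotide supply (Rrm1, Rrm2, Tyms and Tk1) the mean deviation was 0.05 and 0.13 in homozygous FDG-high cells and 0.16 and 0.12 in homozygous FDG-low cells, against -0.07 and -0.08 in heterozygous FDG-high cells and -0.15 and -0.16 in heterozygous FDG-low cells. All 4 homozygous arrays were thus above all 4 heterozygous arrays, a description with no test. The separation lay mainly in Rrm1 and Rrm2. Their differences over both gates were 0.38 and 0.42, against 0.13 for Tyms and -0.03 for Tk1. Averaged over both gates, 0 members passed in limma, against 2.23% of all genes, and 8 (24.2%) were at an unadjusted p under 0.05, against 17.7% of all genes. Rrm2 (0.42 ± 0.08, adjusted p 0.0566) and Ccnd1 (-1.08 ± 0.19, adjusted p 0.0502) came closest.

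In all, 3 members separated the 4 homozygous from the 4 heterozygous arrays without overlap and are named for that, having been picked after their values were seen. Rrm1 and Rrm2 were higher, 2 of 33 against 2.24% of all genes, although the lowest homozygous and highest heterozygous values of Rrm1 both round to 7.87, and Kif20a was lower, 1 of 33 against 2.8%. Kif20a, a kinesin of cytokinesis, measured 6.40 and 6.30 in homozygous FDG-high cells against 6.54 and 6.54 in heterozygous FDG-high cells, and 5.99 and 6.31 in homozygous FDG-low cells against 6.46 and 6.65 in heterozygous FDG-low cells. The average difference was -0.30 ± 0.09 with an adjusted p of 0.171.

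Cell-type markers moved with genotype in the FDG-low gate. Markers past the adjusted threshold are counted here as called, and medians are over all markers of a type. The 9 epithelial markers averaged 7.69 and 7.78 in homozygous FDG-low cells, against 9.78 and 9.87 in heterozygous FDG-low cells. Of these, 8 of 9 were called lower, with a median log2 difference of -2.45. Of the luminal progenitor markers, 5 of 7 were called lower too (median -2.30). The 10 fibroblast markers averaged 10.40 and 10.35 in homozygous FDG-low cells, against 7.69 and 9.32 in heterozygous FDG-low cells. Only 3 of 10 were called higher, although the median difference was 1.77. Erythrocyte markers averaged 7.41 and 7.34 in homozygous FDG-low cells, against 6.35 and 6.73 in heterozygous FDG-low cells, and 2 of 4 were called higher. The part of these shifts in the values of Ccnd1, Mcm6 and Rrm2 was not tested.

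**Figure D2:**
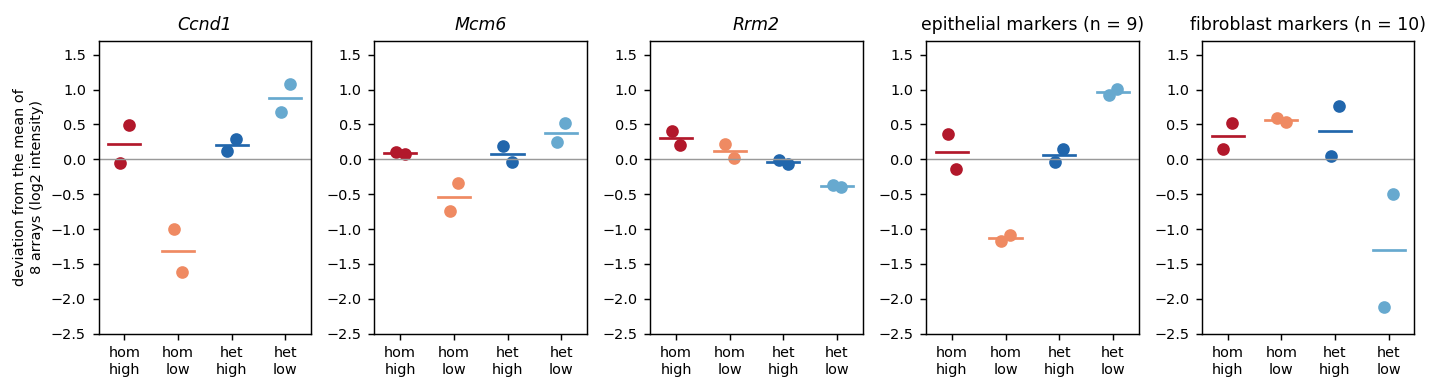
Deviation from the mean of the 8 arrays (log2 intensity) for Ccnd1, Mcm6, Rrm2 and the means of 9 epithelial and 10 fibroblast markers; points are arrays, lines are means of 2. Epithelial markers lie at -1.17 and -1.08 in homozygous FDG-low cells and at 0.92 and 1.01 in heterozygous FDG-low cells, and Ccnd1 and Mcm6 are lowest in the same homozygous group.

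Between gates of homozygous glands, no member passed. In limma 0 of 33 did, against 0.392% of all genes, with the smallest adjusted p, 0.0889, for Ccnd1, and 4 members (12.1%) were at an unadjusted p under 0.05, against 12.9% of all genes. Ccnd1 measured 8.37 and 8.92 in homozygous FDG-high cells, against 7.42 and 6.80 in homozygous FDG-low cells, without overlap (1.53 ± 0.27, 2.89-fold, 95% interval ending at 2.19). Under 3 alternative settings Ccnd1 did pass, with adjusted p-values of 0.046, 0.0474 and 0.0494. Mcm6 measured 9.31 and 9.27 in homozygous FDG-high cells, against 8.46 and 8.86 in homozygous FDG-low cells (0.63 ± 0.17, adjusted p 0.19), again without overlap. Aurka, a kinase of spindle assembly, measured 6.49 and 6.56 in FDG-high cells against 6.02 and 6.03 in FDG-low cells, both below background, a difference of at least 1.25-fold (adjusted p 0.221). Epithelial markers averaged 9.22 and 8.72 in homozygous FDG-high cells, against 7.69 and 7.78 in homozygous FDG-low cells, 2 of 9 being called higher, and 1 of 8 basal markers was called higher (median 1.96). Of 7 luminal progenitor markers 0 were called and 5 were higher at an unadjusted p under 0.05 (median 1.54). Of 4 erythrocyte markers 2 were called lower, and all 4 differences were negative (median -1.65). The 10 fibroblast markers had a median of -0.32 there, with 0 called and 0 at an unadjusted p under 0.05. Their part was not tested.

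Between gates of heterozygous glands, 0 of 33 members passed, against 0.00603% of all genes, and 2 members (6.06%) were at an unadjusted p under 0.05, against 10.3% of all genes. Ccnd1 measured 8.53 and 8.71 in heterozygous FDG-high cells, against 9.09 and 9.50 in heterozygous FDG-low cells (-0.67 ± 0.27, adjusted p 0.478), and the groups did not overlap. Rrm2 measured 6.89 and 6.83 in FDG-high cells, against 6.54 and 6.50 in FDG-low cells (0.34 ± 0.11, adjusted p 0.357), also without overlap. Epithelial markers lay at 8.82 and 9.01 in heterozygous FDG-high cells, against 9.78 and 9.87 in heterozygous FDG-low cells, with 0 of 9 called and 7 lower at an unadjusted p under 0.05. Fibroblast markers lay at 9.86 and 10.58 in FDG-high cells, against 7.69 and 9.32 in FDG-low cells, with 0 of 10 called and 8 higher at an unadjusted p under 0.05. Their part was not tested. Averaged over both genotypes, 0 of 33 members and 0% of all genes passed for the gate, and 1 member (3.03%) was at an unadjusted p under 0.05, against 8.85% of all genes.

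The gate difference of Ccnd1 thus had opposite signs in the genotypes, 1.53 in homozygous and -0.67 in heterozygous glands, comparisons that share no array. The interaction of gate and genotype was 2.20 ± 0.39 with an adjusted p of 0.0701, not past the threshold, and 0 of 33 members passed it against 0.814% of all genes. There were 4 members at an unadjusted p under 0.05 (12.1%), against 14.3% of all genes. Mcm6 had an interaction of 0.94 ± 0.24 (adjusted p 0.145), from gate differences of 0.63 in homozygous and -0.31 in heterozygous glands. Under 3 alternative settings the interaction of Ccnd1 passed.

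Among FDG-high cells, 0 of 33 members and 0% of all genes passed, and 3 members (9.09%) were at an unadjusted p under 0.05, against 3.85% of all genes. Those 3 were Rrm2, Aurka and Kif11, named for that count. Rrm2 measured 7.31 and 7.11 in homozygous FDG-high cells, against 6.89 and 6.83 in heterozygous FDG-high cells (0.35 ± 0.11, adjusted p 1). Aurka measured 6.49 and 6.56 in homozygous FDG-high cells, against 5.84 and 6.20 in heterozygous FDG-high cells (0.50 ± 0.15, adjusted p 1). Kif11, a kinesin that separates spindle poles, ran the other way at 6.35 and 6.29 in homozygous FDG-high cells, against 6.62 and 6.53 in heterozygous FDG-high cells (-0.25 ± 0.09, adjusted p 1).

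The study named the rank product for this comparison, at p under 0.01 and at least 1.5-fold. Computed anew, it called 203 genes (1.22%) and 2 members, Mcm5 and Plk1, both higher, against 0.579% of all genes called higher. Its p-values were not adjusted over genes. They took every difference between a homozygous and a heterozygous array as independent, although each array enters more than once, and so tend to be too small. Mcm5 measured 7.05 and 7.56 in homozygous FDG-high cells, against 6.37 and 7.04 in heterozygous FDG-high cells, so that the groups barely stayed apart (0.60 ± 0.34). Its FDG-low values were 7.14 and 6.39 in homozygous cells, against 6.81 and 7.11 in heterozygous cells, which overlap. Plk1, a kinase of mitotic entry and spindle formation, measured 6.73 and 6.98 in homozygous FDG-high cells, against 6.35 and 6.06 in heterozygous FDG-high cells (0.65 ± 0.28). Neither passed in limma, where both had an adjusted p of 1. The epithelial and fibroblast marker medians were 0.18 and -0.13 in this comparison, with 0 called.

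**Figure D3:**
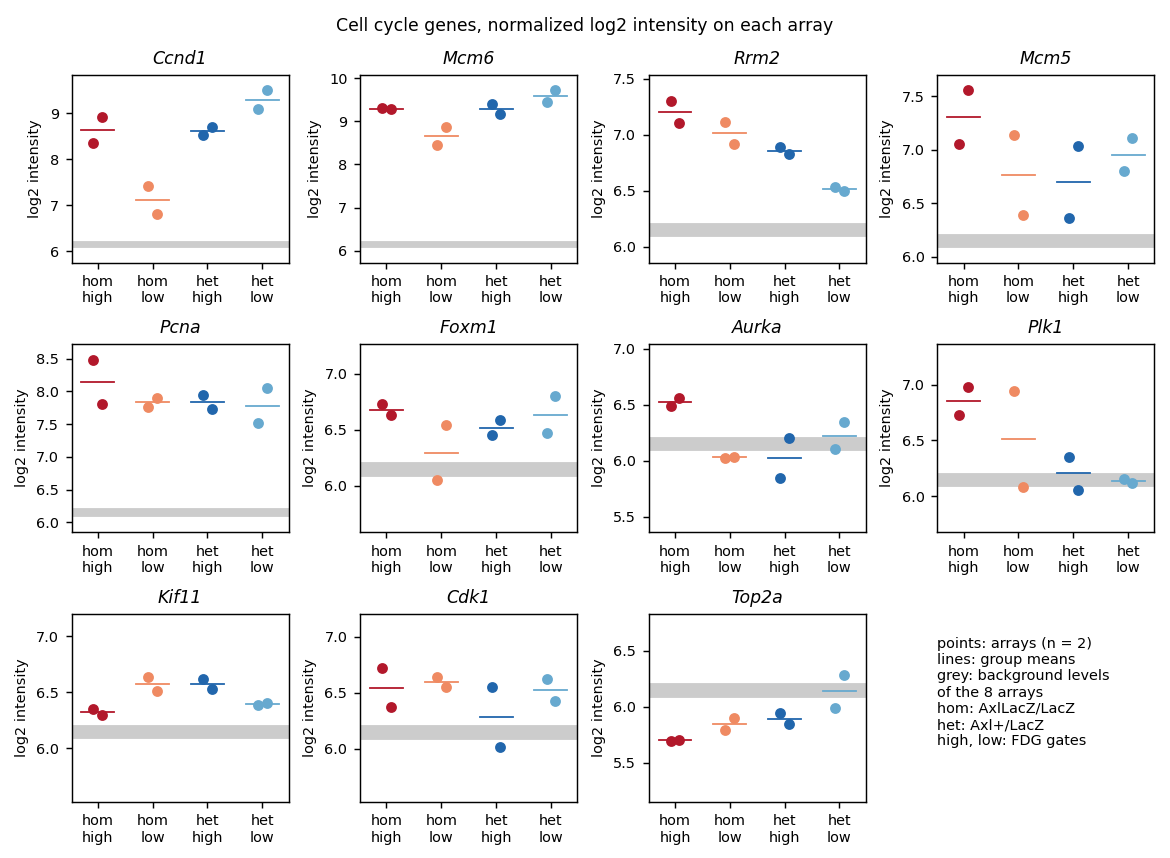
Normalized log2 intensity of 11 cell cycle genes on each array; points are arrays, lines are means of 2, and the grey band spans the background levels of the 8 arrays (6.09 to 6.20). Ccnd1 is lowest on the homozygous FDG-low arrays at 7.42 and 6.80, and Top2a lies below background on 7 of 8 arrays.

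Pcna, Cdk1, Foxm1 and Top2a passed in no comparison. Pcna, the sliding clamp of DNA polymerases, measured 8.48 and 7.81 in homozygous FDG-high cells and 7.76 and 7.91 in homozygous FDG-low cells, against 7.94 and 7.73 in heterozygous FDG-high cells and 7.51 and 8.05 in heterozygous FDG-low cells. Its groups overlapped between gates in both genotypes, with gate differences of 0.31 and 0.05. Cdk1, the kinase that drives mitosis, measured 6.72 and 6.37 in homozygous FDG-high cells and 6.64 and 6.56 in homozygous FDG-low cells, against 6.55 and 6.01 in heterozygous FDG-high cells and 6.62 and 6.43 in heterozygous FDG-low cells. Foxm1, a factor that activates mitotic genes, measured 6.73 and 6.63 in homozygous FDG-high cells and 6.05 and 6.55 in homozygous FDG-low cells, against 6.46 and 6.58 in heterozygous FDG-high cells and 6.47 and 6.80 in heterozygous FDG-low cells. Its gate difference in homozygous glands was 0.38 ± 0.19 (adjusted p 0.474). A second Foxm1 probe, above background on 7 arrays, gave 0.31 there (limma, adjusted p over all probes 0.388). Between genotypes in FDG-low cells the second probe gave -0.39 (0.129), against -0.34 for the first.

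Top2a, the topoisomerase that untangles sister chromatids, was above background on 1 heterozygous FDG-low array only. It measured 5.70 and 5.71 in homozygous FDG-high cells and 5.79 and 5.90 in homozygous FDG-low cells, against 5.95 and 5.84 in heterozygous FDG-high cells and 5.99 and 6.29 in heterozygous FDG-low cells. Plk1 stood at 6.94 and 6.08 in homozygous FDG-low cells, against 6.16 and 6.12 in heterozygous FDG-low cells, so 1 homozygous array was above and the other below both heterozygous arrays. Aurka stood at 6.02 and 6.03 in homozygous FDG-low cells, against 6.10 and 6.35 in heterozygous FDG-low cells, without overlap (adjusted p 0.545). Kif11 measured 6.64 and 6.51 in homozygous FDG-low cells, against 6.39 and 6.41 in heterozygous FDG-low cells.

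**Figure D4:**
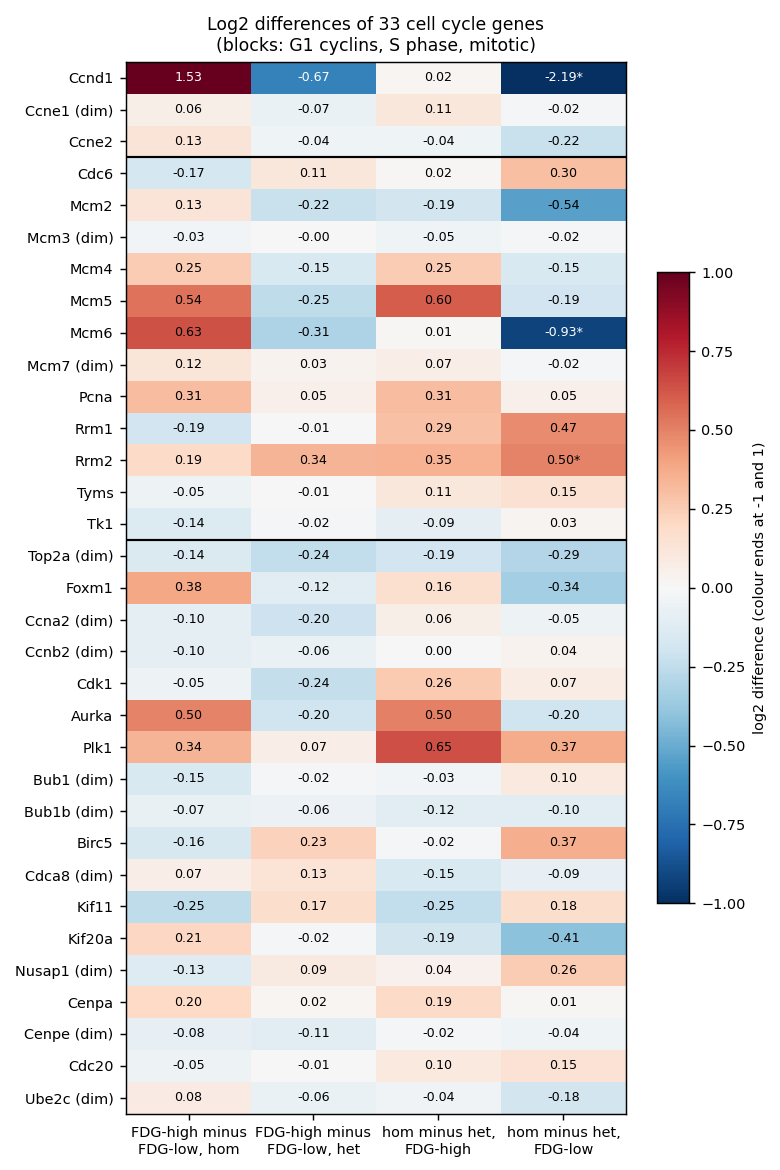
Log2 differences of the 33 genes in 4 comparisons, in blocks of G1 cyclins, S phase and mitotic genes; an asterisk marks an adjusted p under 0.05, and genes marked dim were above background on fewer than 4 arrays. Asterisks stand beside Ccnd1 (-2.19), Mcm6 (-0.93) and Rrm2 (0.50) in the FDG-low genotype comparison and nowhere else.

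S phase and mitotic genes did not part clearly in any comparison. In homozygous glands the median gate difference was 0.13 for the 12 S phase genes (7 positive, 5 negative) and -0.06 for the 18 mitotic genes (7 positive, 11 negative), against -0.01 for all genes, 48% of which were positive. The gap of 0.19 compares with an SD between replicates of 0.1 for such a gap, and it was -0.04 when only members above background on at least 4 arrays were counted and 0.41 with a smaller offset of 16 in the background correction. In heterozygous glands the medians were -0.01 and -0.04, a gap of 0.03. Between genotypes they were 0.09 and -0.01 in FDG-high cells and 0.00 and -0.01 in FDG-low cells, gaps of 0.10 and 0.02. The gate and genotype comparisons share arrays.

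Among S phase genes the FDG-low genotype differences ran from -0.93 (Mcm6) to 0.50 (Rrm2), a wider range than the -0.41 to 0.37 of the mitotic genes, many of which lay near background. The 95% confidence intervals of the 21 brighter members had half-widths of 0.22 to 0.82 on the log2 scale, with a median of 0.45. Changes of the mitotic genes above background were bounded by intervals from -0.62 to 1.02 for the gate difference in homozygous glands and from -0.80 to 0.84 in heterozygous glands. A p that misses the threshold therefore does not show equal levels.

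Members whose groups did not overlap were also counted. In the FDG-low genotype comparison 7 of 33 were higher and 9 lower, against 24.8% and 25.6% of all genes. Between gates of homozygous glands 5 were higher and 6 lower, against 21.3% and 23.3%. Between gates of heterozygous glands the counts were 4 and 3, against 18.5% and 20.5%, and among FDG-high cells between genotypes 6 and 4, against 14.4% and 15.6%.

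Other genes of the pathways were read from 3 lists. Of 33 further replication genes on the array and 39 further mitotic genes, 0 passed in limma in the 4 gate and genotype comparisons. Alternatives were read only for those of them named for their gate differences, so the other genes of these 2 lists were not followed there. Under 1 to 3 of 16 alternatives, all lower in homozygous FDG-low cells, Rpa1 (-1.003 ± 0.32), Ncapd2 (-0.59 ± 0.19), Gtse1 (-0.81 ± 0.24), Anln (-0.56 ± 0.19) and Rfc2 (-0.76 ± 0.26) did pass. At an unadjusted p under 0.05 in FDG-low cells, 1 replication gene was higher and 4 were lower, and 1 mitotic gene was higher and 5 were lower, against 10.7% higher and 11.7% lower of all genes. Between gates of homozygous glands, 1 replication gene was higher and 1 lower, and 2 mitotic genes were higher and 1 lower, against 6.65% higher and 6.27% lower of all genes. Between gates of heterozygous glands, 0 replication genes were higher and 2 lower, and 0 mitotic genes were higher and 1 lower, against 4.72% and 5.53% of all genes. Among FDG-high cells between genotypes both lists had 0, against 1.86% higher and 1.99% lower of all genes. The mitotic list had a median of -0.10 in the genotype comparison of FDG-low cells (11 positive, 28 negative, against 50.3% of all genes positive). Fewer of its genes were above background in homozygous FDG-low cells (5 and 7) than on the other arrays. Those had 18 and 15 (homozygous FDG-high), 12 and 18 (heterozygous FDG-high) and 14 and 20 (heterozygous FDG-low). Of all 16593 genes, the fewest were above background on the same homozygous FDG-low arrays, 8471 and 8452, against 8994 to 9564 elsewhere. The background level was also highest there, at 6.196 and 6.202, against 6.09 to 6.14 elsewhere. Its part in the mitotic counts was not tested.

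The 29 genes of G1 control exceeded the share of all genes in FDG-low cells. At an unadjusted p under 0.05, 9 were higher and 5 lower in homozygous cells, against 10.7% and 11.7% of all genes. The median was 0.12 (21 positive, 8 negative). The list was chosen with earlier results of these data known, so these counts are a description and not a test. It was also brighter than most genes. In heterozygous FDG-low cells 26 and 25 of its 29 genes were above background, against 8994 and 9259 of all 16593. Ccnd2 was the only gene of the list past the adjusted threshold. This D-type cyclin rose in homozygous FDG-low cells at 8.60 and 8.95, against 7.90 and 7.03 in heterozygous FDG-low cells (1.31 ± 0.30, 2.48-fold, adjusted p 0.0489), the opposite sign of Ccnd1. The call was lost without any single array other than the first heterozygous FDG-low array, with adjusted p-values up to 0.22. Ccnd3, another D-type cyclin, measured 9.30 and 9.30 in homozygous FDG-low cells, against 7.81 and 8.49 in heterozygous FDG-low cells (1.15 ± 0.28, adjusted p 0.0565).

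Inhibitors of the G1 kinases lay close to the threshold in both directions. Cdkn1c measured 8.72 and 9.12 in homozygous FDG-low cells, against 6.87 and 7.50 in heterozygous FDG-low cells (1.73 ± 0.50, adjusted p 0.0914). Cdkn2b measured 8.44 and 8.35 in homozygous FDG-low cells, against 6.83 and 7.44 in heterozygous FDG-low cells (1.26 ± 0.32, adjusted p 0.0633). Cdkn1b had the opposite sign at 8.47 and 8.62 in homozygous FDG-low cells, against 9.65 and 9.61 in heterozygous FDG-low cells (-1.09 ± 0.27, adjusted p 0.0639). Rb1, which encodes the RB protein that holds E2F factors, measured 6.88 and 7.45 in homozygous FDG-low cells, against 8.13 and 8.75 in heterozygous FDG-low cells (-1.27 ± 0.32, adjusted p 0.0643). None of these 4 genes overlapped between the groups. Of 16 alternatives, 7 called Cdkn1c, 7 Cdkn2b, 7 Ccnd3, 6 Cdkn1b and 5 Rb1, while Ccnd2 kept its call in 6. The shifts of epithelial, fibroblast and erythrocyte markers given above apply to these genes too, and their part was not tested.

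By the rule for the gate comparisons, the listed genes with the largest differences did not pass the threshold. In homozygous glands Rpa1, of the single-strand binding complex, had 1.13 ± 0.32, and Chaf1b, of the chromatin assembly factor, had -0.49 ± 0.12. Gins4 had 0.36 ± 0.27 and Cdt1, the licensing factor, -0.40 ± 0.25. Gtse1 had 0.48 ± 0.24, the condensin subunit Ncapd2 0.39 ± 0.19, the centromere chaperone Hjurp -0.21 ± 0.20 and the kinetochore gene Ndc80 -0.16 ± 0.10. Among G1 genes E2f1 had 0.46 ± 0.25, the inhibitor genes Cdkn1b and Cdkn2b 0.45 ± 0.27 and -1.16 ± 0.32, and Ccnd3 -0.83 ± 0.28. The largest of these, for Cdkn2b, had an adjusted p of 0.197.

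In heterozygous glands Cdt1 had 0.24 ± 0.25 and the clamp loader gene Rfc4 0.21 ± 0.17, while Rfc2 had -0.67 ± 0.26 and the checkpoint kinase gene Chek1 -0.41 ± 0.30. Cks1b had 0.29 ± 0.16 and Cdca3 0.11 ± 0.13, while Gtse1 had -0.65 ± 0.24 and the cytokinesis gene Anln -0.31 ± 0.19. Cdkn1c, another inhibitor gene, had 1.00 ± 0.50 and Ccnd2 0.72 ± 0.30, while Rb1 had -0.84 ± 0.32 and Cdkn1b -0.35 ± 0.27. The adjusted p-values of the G1 genes here were 0.435 or more.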

How the data were processed

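The authors deposited an intensity on a linear scale for each of 25697 probes on 8 arrays, as the values show. The design text speaks of log2 quantile normalized data, which the deposited intensities are not. Scanning and earlier correction steps are not given here by any source. Intensities were therefore background corrected (normexp, offset 50), quantile normalized and log2 transformed with limma 3.58.1 in R 4.3.3, so differences of dim genes are understated.

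Probes were named from the platform annotation (23978 with 1 symbol, 1719 with none), and the brightest probe stood for each of 16593 genes. The background of an array was the 95th percentile of 1324 probes of chemosensory receptor genes (Olfr, Vmn1r, Vmn2r and Taar), and a gene was above it if any of its probes was. A single limma model with 1 coefficient per group (4 residual and 2.36 prior degrees of freedom) gave all comparisons, two-sided, with Benjamini-Hochberg adjustment over all genes. Scripts were tested on simulated data. The number of arrays limits the precision.

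Members and lists were chosen with earlier results of these data known. Values on every array are given for members past the threshold, for Top2a, Foxm1, Ccnd1, Pcna and Cdk1 (and Mki67 by the same rule, which has no named probe), and for the 4 S phase and 4 mitotic members above background on at least 4 arrays with the largest gate differences. Of the other lists, genes past the threshold and the 2 largest differences per sign and gate comparison are named. Same-numbered replicates did not deviate together in 3 of the 4 pairs of groups, so the main model has no block. The exception was the 2 gates of heterozygous glands (correlation 0.40), and a pairing there would not be accounted for. All 8 arrays share 1 chip by the labels, and each group sits at neighbouring positions, so position and group cannot be told apart. Alternatives changed the background correction, normalization, probe choice, filter, variance model, samples and test.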

Additional observations from a re-analysis of the deposited data

How the results depend on the processing

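No direction of a called result reversed under any alternative. The 3 members called between genotypes in FDG-low cells became 1 (Ccnd1) when only the arrays compared were fitted and ranged from 0 to 3 when each array was left out, where a lone array is assumed to vary like the other groups. In the gate comparison of homozygous glands and in the interaction, 1 member (Ccnd1) was called with an offset of 16, with only genes above background on at least 2 arrays, or with an intensity trend in the variance. In the genotype comparison over both gates 1 member was called under the same 3 settings (Ccnd1 in each), with the mean of all probes (Mcm6) and with the replicate block (Rrm2). The rank product, with its unadjusted p-values, called 2 members in FDG-high cells. The gap between S phase and mitotic medians for the gate in homozygous glands was -0.0359 with members above background on at least 4 arrays, 0.41 with the offset of 16 and 0.0878 with the filter on dim genes. Left out array by array, it ranged from 0.10 to 0.20 there, from -0.062 to 0.13 between genotypes in FDG-high cells, from -0.058 to 0.20 in FDG-low cells and from -0.0585 to 0.17 in the interaction, which was 0.0853 with Ccne1, Ccne2 and Ccna2 counted as S phase genes. Rrm2 kept its call in 4 of 16 alternatives, Mcm6 in 11 and Ccnd1 in 15.

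The replicate block, a single term shared by all groups, left 3 members called in FDG-low cells and 0 in each comparison of gates. Whether same-numbered arrays are paired is not in the labels. Correlations of same-numbered deviations between gates were 0.40 in heterozygous and 0.01 in homozygous glands. Between genotypes they were 0.07 in FDG-high and -0.05 in FDG-low cells. A pairing of gates within a genotype was not modelled. Over all genes, the calls in FDG-low cells ranged from 121 (without the first homozygous array) to 1675 (filter on dim genes), against 1396. Of 2172 values of named genes under alternatives, 2007 stayed on their side of the threshold with their sign, 28 lost the threshold, 45 gained it and 92 changed sign while uncalled. The causes were not tested. Dim genes, among them 8 mitotic members above background on at most 1 array, limit what can be detected.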

Other observations

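Birc5, a subunit of the chromosomal passenger complex, picked after its values were seen, measured 6.41 and 6.54 in homozygous FDG-low cells, against 6.07 and 6.14 in heterozygous FDG-low cells (log2 difference 0.37, adjusted p 0.206). Its other 2 probes, above background on 4 and 2 arrays, had the opposite sign (-0.27 and -0.44). Mcm2, picked likewise, measured 5.87 and 6.08 in homozygous FDG-low cells, against 6.30 and 6.73 in heterozygous FDG-low cells (adjusted p 0.139).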
